A study of Homo sapiens with 3 samples.

Results

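Amino acids cross the plasma membrane through carriers of the solute carrier (SLC) families, and this account describes the RNA of 10 of them in AGS, a cell line from a human gastric adenocarcinoma. The genes were SLC3A2, SLC7A5, SLC43A1, SLC7A6, SLC7A1, SLC1A5, SLC1A4, SLC38A1, SLC38A2 and SLC6A9. They were taken by name from the 50868 listed genes, and each name had 1 entry. Cultures received 12 µM SFA, 18 µM SFE or DMSO, the vehicle, and RNA was extracted after 48 h. SFA and SFE are known here by their code names only. Each group has 1 library of ribosome-depleted total RNA, so no difference has a replicate check and no test between conditions was possible. The doses of SFA and SFE differ, so their values stand side by side and no fold was formed between them.

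Carriers of this kind work as uniporters, exchangers or sodium-coupled pumps. SLC7A5 and SLC7A6 reach the membrane only when joined by a disulfide bond to SLC3A2, a single-pass glycoprotein also known as CD98 heavy chain or 4F2hc. Sodium-coupled carriers such as SLC38A2 load the cell with small neutral amino acids, glutamine among them, which exchangers then trade for essential ones. When amino acids run short, the kinase GCN2 slows translation and favours that of ATF4, a transcription factor whose known targets include many of these carriers.

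In short, SLC1A5 and SLC3A2 were higher with both compounds, SLC1A4 and SLC7A1 were higher by less, SLC38A2 and SLC6A9 were lower, and SLC7A5 differed by under 1.1-fold. SLC1A5 was 1.90-fold over DMSO with SFA and 1.85-fold with SFE. SLC3A2 was 1.63-fold over DMSO with SFA and 1.49-fold with SFE. Its light chain SLC7A5, the most abundant of the 10 RNAs, was 1.07-fold over DMSO with each compound.

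The DNA just upstream of transcription starts is shown first, because ATF4 binds a short element, the C/EBP-ATF response element, for which the letters TGATGNAA were searched on both strands. The search covered 250 bases before to 50 bases after each RefSeq transcription start (build GRCh38.p14), of which the 10 genes have 17. The letters were found in 5 of these 17 windows, each of a different gene, and in 3.62% of all 35116 windows. A match is a description of the letters and not a binding site. Each stretch is written 5′ to 3′ on the strand of the gene, with the matching letters in capitals.

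SLC1A4, chr2:64989354-64989413, plus strand: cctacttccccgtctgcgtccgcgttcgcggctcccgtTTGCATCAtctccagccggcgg

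SLC1A5, chr19:46784878-46784937, minus strand: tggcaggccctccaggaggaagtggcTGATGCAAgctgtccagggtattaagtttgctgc

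SLC3A2, chr11:62881723-62881748, plus strand: tgtgcaggactccTTACATCAgctcc

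SLC7A1, chr13:29595674-29595733, minus strand: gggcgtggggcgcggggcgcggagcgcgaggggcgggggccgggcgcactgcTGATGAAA

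SLC38A1, chr12:46266502-46266561, minus strand: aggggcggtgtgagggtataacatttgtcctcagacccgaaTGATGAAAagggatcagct

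The match lay 97 bases before an internal start of SLC1A5 and 7 bases before the downstream of both SLC1A4 starts. It began at base 38 after the most downstream start of SLC3A2, at base 8 after the start of SLC7A1 and 4 bases before the downstream start of SLC38A1. SLC1A4, SLC1A5, SLC3A2 and SLC7A1 were the 4 genes with the largest positive differences among those at 1 FPKM or more, and SLC38A1 was near 1-fold. Whether the letters bear on these differences was not tested. No match was found in the windows of SLC7A5, SLC7A6, SLC38A2, SLC6A9 or SLC43A1, which says only that the letters are not in those windows.

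A second motif, the E-box CACGTG, is bound by MYC, a factor known to drive SLC7A5 and SLC1A5 in growing cells. It was found in 3 of the 17 windows, and in 7.26% of all windows. The stretch of SLC7A5, the most abundant member, is shown with that of SLC1A5.

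SLC7A5, chr16:87869604-87869663, minus strand: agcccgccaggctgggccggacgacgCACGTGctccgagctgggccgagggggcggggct

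SLC1A5, chr19:46787310-46787369, minus strand: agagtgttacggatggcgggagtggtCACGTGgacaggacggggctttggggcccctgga

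The remaining match was in a window of SLC43A1, which was scarcely detected.

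Levels are given as deposited FPKM, fragments per kilobase of a gene's length, relative to all fragments counted in the library. The libraries held 13639844 counts with SFA, 13644676 with SFE and 18767232 with DMSO, so a raw count with a compound is lower at an equal level. Folds are ratios of counts divided by these totals, with a 95% Clopper-Pearson interval in parentheses that covers counting error only. Values are relative to the RNA of the whole culture, so fewer cells making an RNA and less of that RNA per cell cannot be told apart. Of the epithelial markers checked, KRT8, KRT18 and KRT7 reached 118 FPKM or more in every library, while EPCAM, KRT19 and CDH1 stayed at or below 0.34 FPKM.

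**Figure D1:**
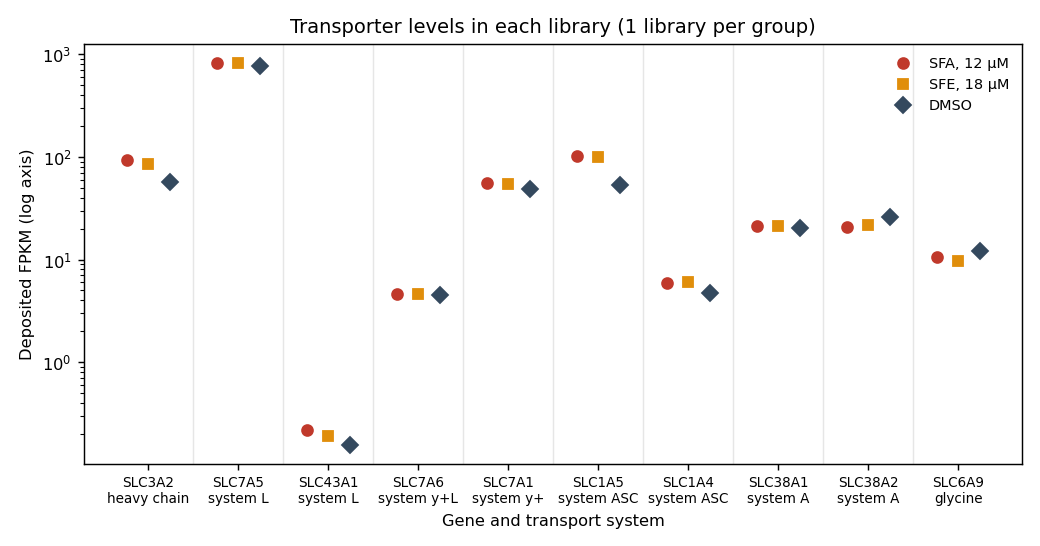
Deposited FPKM (log axis) of each transporter in the SFA, SFE and DMSO libraries, 1 point per library, grouped by transport system. SLC7A5 lies highest, between 765 and 820 FPKM, SLC43A1 lies lowest, below 0.3 FPKM, and the DMSO point lies clearly below the others for SLC3A2 and SLC1A5.

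The heavy chain SLC3A2 (ENSG00000168003, chromosome 11, 62856102 to 62888875, hg38) had 18589 counts or 92.7 FPKM with SFA, 17083 counts or 85.2 FPKM with SFE, and 15732 counts or 57.0 FPKM with DMSO. Both compound libraries lay above the DMSO library. SLC3A2 was 1.63-fold over DMSO with SFA (1.59 to 1.66) and 1.49-fold with SFE (1.46 to 1.53). Of all 11680 genes measured, 3.76% differed from DMSO as far upward or further with SFA and 5.65% with SFE. SLC3A2 overlaps no other listed gene.

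SLC7A5 (ENSG00000103257, chromosome 16, 87830023 to 87869488), or LAT1, is the light chain that exchanges large neutral amino acids such as leucine across the membrane. It had 58007 counts or 820 FPKM with SFA, 57995 counts or 819 FPKM with SFE, and 74466 counts or 765 FPKM with DMSO. SLC7A5 ranked 27 by FPKM among the 11680 genes with SFA, 28 with SFE and 27 with DMSO. Its 1.07-fold difference with SFA (1.06 to 1.08) and with SFE (1.06 to 1.08) exceeded counting error but depended on how the libraries were scaled. Under TMM scaling, which sets libraries equal on most genes, it was 1.03-fold with SFA and 1.001-fold with SFE. SLC7A5 overlaps 1 clone-named gene, which had 30 to 41 counts in a library.

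SLC7A6 (chromosome 16, 68264516 to 68301823), the y+LAT2 light chain that exchanges cationic for neutral amino acids, stood at 4.59 FPKM with SFA, 4.67 with SFE and 4.56 with DMSO. Its folds over DMSO were 1.01 with SFA (0.934 to 1.08) and 1.02 with SFE (0.949 to 1.10). Both intervals hold 1, so a difference was not detectable at this depth, and under TMM scaling the folds turned to 0.965 with SFA and 0.956 with SFE. SLC7A6 overlaps 2 listed genes, SLC7A6OS among them, and how reads in the shared stretch were assigned is not known, so its values are uncertain.

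SLC43A1 (chromosome 11, 57484534 to 57515786), or LAT3, is a system L carrier that needs no heavy chain. It had 17 counts or 0.217 FPKM with SFA, 15 counts or 0.191 FPKM with SFE, and 17 counts or 0.158 FPKM with DMSO. The intervals of its folds ran from 0.660 to 2.87 with SFA and from 0.564 to 2.58 with SFE, so no difference could be seen at this depth. It was the one member below 1 FPKM in every library, and it enters none of the counts of members at a fold limit below.

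Within a library, the ratio of SLC3A2 to SLC7A5 does not depend on scaling between libraries. Per base of exon, that ratio was 0.294 with SFA (0.289 to 0.299), 0.270 with SFE (0.265 to 0.275) and 0.194 with DMSO (0.190 to 0.197). The heavy chain RNA was thus the less abundant of the pair in all 3 libraries, and closer to its light chain in both compound libraries. SLC3A2 also serves SLC7A7, SLC7A8, SLC7A10 and SLC7A11, the cystine and glutamate exchanger xCT. SLC7A11 stood at 19.4 FPKM with SFA, 14.1 with SFE and 4.72 with DMSO, and it overlaps another listed gene. SLC7A7 and SLC7A8 stayed at or below 0.214 FPKM. SLC7A10 had 0 counts in all 3 libraries. Per base of exon, SLC7A5 made up 96.5% of the summed level of the 6 light chains with SFA, 97.1% with SFE and 98.0% with DMSO. SLC7A11 made up 2.14% with SFA, 1.57% with SFE and 0.566% with DMSO. On the same scale the summed light chains stood 3.53 times over SLC3A2 with SFA, 3.82 times with SFE and 5.27 times with DMSO. As deposited they stood 9.10 times over SLC3A2 with SFA, 9.84 times with SFE and 13.6 times with DMSO. The size of this gap thus depends on the length used, while its order across the libraries does not.

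The cationic carrier SLC7A1 (ENSG00000139514, chromosome 13, 29509410 to 29595688), or CAT1, imports arginine, lysine and ornithine without a heavy chain. It had 6329 counts or 55.9 FPKM with SFA, 6207 counts or 54.8 FPKM with SFE, and 7498 counts or 48.1 FPKM with DMSO. The folds over DMSO were 1.16 with SFA (1.12 to 1.201) and 1.14 with SFE (1.10 to 1.18). Of all genes, 23.2% lay as far upward or further with SFA and 27.5% with SFE. Per base of exon, SLC7A1 exceeded SLC7A6, the other carrier of cationic amino acids, 5.13-fold with SFA (4.82 to 5.45), 4.95-fold with SFE (4.65 to 5.26) and 4.44-fold with DMSO (4.21 to 4.69).

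SLC1A5 (ENSG00000105281, chromosome 19, 46774883 to 46788594), or ASCT2, is a sodium-dependent exchanger of small neutral amino acids and a main route of glutamine entry in many tumour cells. It had 7709 counts or 102 FPKM with SFA, 7521 counts or 99.1 FPKM with SFE, and 5582 counts or 53.5 FPKM with DMSO. Both compound libraries held more counts than the deeper DMSO library. SLC1A5 was 1.90-fold over DMSO with SFA (1.84 to 1.97) and 1.85-fold with SFE (1.79 to 1.92). Of all genes, 1.82% lay as far upward or further with SFA and 1.95% with SFE, the smallest such shares among the members.

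SLC1A5 overlaps other listed genes, and whether counting used strand is not given, so its values are uncertain. The clone-named gene CTB-147N14.6, on the opposite strand at its 5′ end, had 2009 counts with SFA, 1880 with SFE and 1999 with DMSO. It was 1.38-fold over DMSO with SFA (1.30 to 1.47) and 1.29-fold with SFE (1.21 to 1.38), below the folds of SLC1A5.

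SLC1A4 (chromosome 2, 64988477 to 65023865), or ASCT1, is the relative of SLC1A5 that carries alanine, serine and cysteine. It had 864 counts or 5.91 FPKM with SFA, 874 counts or 5.98 FPKM with SFE, and 944 counts or 4.69 FPKM with DMSO. The folds over DMSO were 1.26 with SFA (1.15 to 1.38) and 1.27 with SFE (1.16 to 1.40). As far upward or further lay 17.6% of all genes with SFA and 17.1% with SFE. Per base of exon, SLC1A5 exceeded SLC1A4 18.6-fold with SFA (17.3 to 20.0), 17.9-fold with SFE (16.7 to 19.2) and 12.3-fold with DMSO (11.5 to 13.2). The interval of this within-library ratio with either compound did not overlap that with DMSO.

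The system A carriers SLC38A1 and SLC38A2, or SNAT1 and SNAT2, lie near each other on chromosome 12 and import glutamine, alanine and other small neutral amino acids with sodium. SLC38A2 (46358189 to 46372867), known to be induced at the RNA level when amino acids are withdrawn, had 3986 counts or 20.8 FPKM with SFA, 4194 counts or 21.9 FPKM with SFE, and 6881 counts or 26.1 FPKM with DMSO. It was 1.25-fold lower than DMSO with SFA (1.21 to 1.30) and 1.19-fold lower with SFE (1.15 to 1.24). As far downward or further lay 14.0% of all genes with SFA and 14.9% with SFE. SLC38A1 (46183063 to 46270017) stood at 21.1 FPKM with SFA, 21.0 with SFE and 20.3 with DMSO. Its folds of 1.04 with SFA (0.999 to 1.08) and 1.03 with SFE (0.991 to 1.07) were within counting error, and under TMM scaling they turned to 0.997 with SFA and 0.964 with SFE.

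Per base of exon, SLC38A2 exceeded SLC38A1 1.44-fold with SFA (1.38 to 1.51), 1.53-fold with SFE (1.47 to 1.60) and 1.88-fold with DMSO (1.82 to 1.95). The pair thus lay closer together in both compound libraries. Both overlap a clone-named gene, with at most 4 counts in a library for SLC38A1 and 17 for SLC38A2.

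SLC6A9, or GLYT1 (ENSG00000196517, chromosome 1, 43991500 to 44031467), is a sodium- and chloride-coupled glycine transporter, and glycine is a building block of glutathione and of purines. It had 1060 counts or 10.6 FPKM with SFA, 971 counts or 9.75 FPKM with SFE, and 1669 counts or 12.2 FPKM with DMSO. SLC6A9 was 1.14-fold lower than DMSO with SFA (1.06 to 1.24) and 1.25-fold lower with SFE (1.15 to 1.35). Of all genes, 25.2% lay as far downward or further with SFA and 11.6% with SFE. SLC6A9 overlaps 2 listed genes, each with at most 39 counts in a library.

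**Figure D2:**
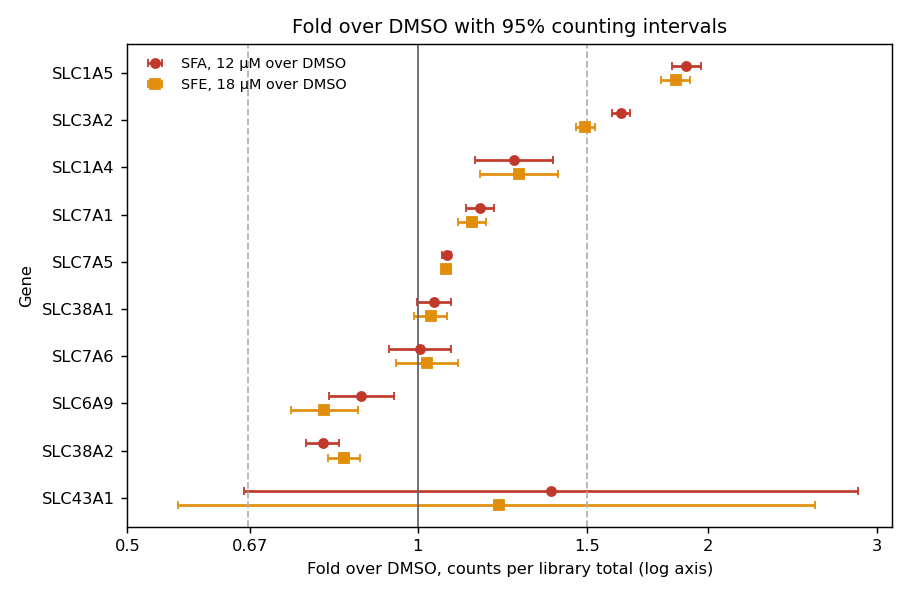
Fold over DMSO of each transporter with SFA and with SFE (log axis), from counts divided by library totals, with 95% counting intervals as bars and dashed lines at 1.5-fold either way. SLC1A5 lies at 1.90 and 1.85, SLC38A2 and SLC6A9 lie below 1 with both compounds, and the bars of SLC43A1 span 1 widely.

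A gene was counted as different when log2(FPKM + 1) moved by at least 1.5-fold, over the 11680 genes that reached 1 FPKM in any library. Of the 10 members, 9 passed this filter. With SFA, 2 of the 9 were at least 1.5-fold higher, SLC1A5 and SLC3A2, where 5.36% of all genes were, and 0 were as much lower, where 4.67% of all genes were. With SFE, 1 of the 9 was at least 1.5-fold higher, SLC1A5, where 5.34% of all genes were, and 0 were as much lower, where 3.48% of all genes were. In either direction these 2 members with SFA stand beside 10.0% of all genes, and the 1 with SFE beside 8.82%. SLC3A2 with SFE lay just short of the limit, and the interval of its fold by counts spans it. No member differed by 2-fold: with SFA 1.36% of all genes were as much higher and 1.34% as much lower (2.71% in all), and with SFE 1.37% were higher and 1.01% lower (2.38% in all). By any amount, 7 of the 9 were higher and 2 lower with each compound, where SLC7A6 and SLC38A1 among the 7 turn to lower under other scalings. Over all genes 51.4% were higher and 48.6% lower with SFA, and 55.2% higher and 44.8% lower with SFE. The median log2 difference of the 9 was 0.10 with SFA, beside 0.01 over all genes, and 0.10 with SFE, beside 0.03 over all genes. Both comparisons share the same DMSO library, so a low or high value there moves both alike.

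**Figure D3:**
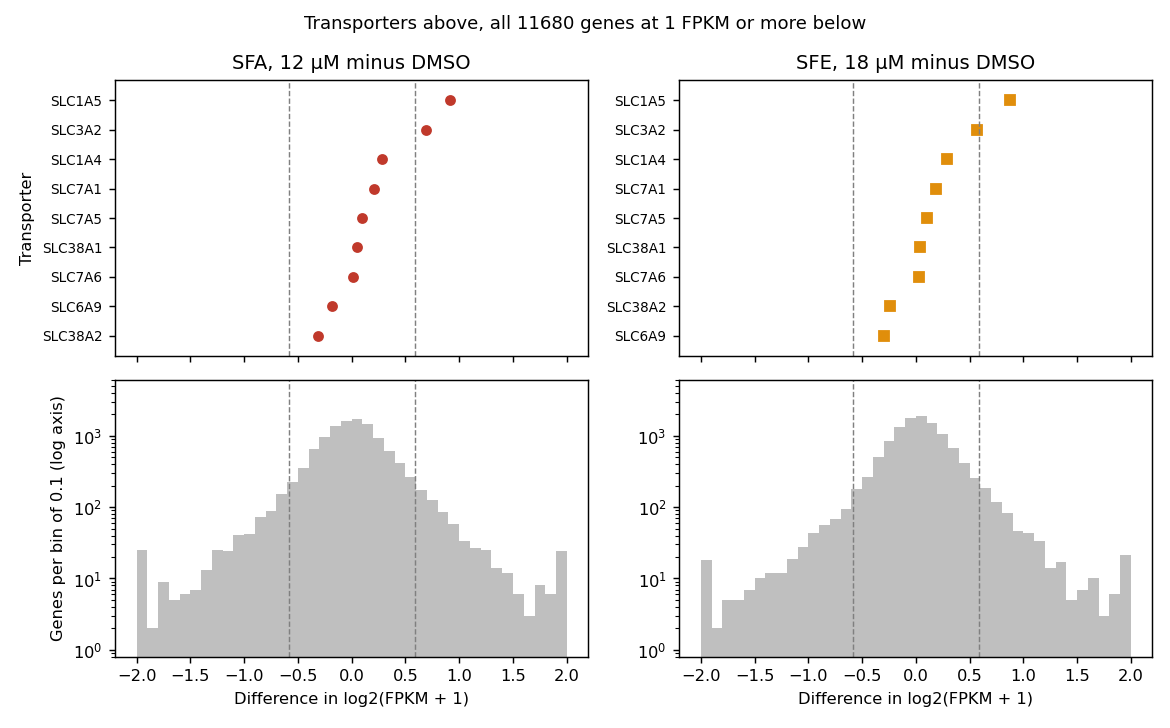
Difference in log2(FPKM + 1) from DMSO with SFA (left) and SFE (right) of the 9 transporters at 1 FPKM or more (upper panels), and of all 11680 genes (lower panels, number of genes on a log axis, values past ±2 in the end bins). Dashed lines mark 1.5-fold, which SLC1A5 and SLC3A2 pass with SFA and SLC1A5 passes with SFE, while SLC3A2 lies just short of it with SFE and the other 7 lie between the lines with both.

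Together the 10 genes took 0.748% of all counts with SFA, 0.735% with SFE and 0.639% with DMSO. Their summed counts were 1.17-fold over DMSO with SFA (1.16 to 1.18) and 1.15-fold with SFE (1.14 to 1.16). Without SLC7A5, which holds most of these counts, the sum was 1.33-fold over DMSO with SFA (1.31 to 1.35) and 1.28-fold with SFE (1.26 to 1.29). Of the 43962 counts then left with SFA, SLC3A2 held 18589 and SLC1A5 held 7709. With SFE they held 17083 and 7521 of 42261, and with DMSO 15732 and 5582 of 45532. The rise of this sum lay mainly in SLC3A2 and SLC1A5 and was not shared by all members, as SLC38A2 and SLC6A9 were lower.

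The order of levels between genes depends on the length used. The deposited FPKM divides by the summed length of a gene's distinct annotated exons, in which exons that overlap are counted repeatedly. Among 30417 genes matched to GENCODE 29 that length held within 1% for 90.7%, and for 9 of the 10 members. Against the merged exon length, in which each base counts once, the deposited length was 2.84 times as long for SLC3A2, which has 23 annotated transcripts, 2.56 times for SLC7A6 and 2.13 times for SLC38A2. It was 1.08 times as long for SLC7A1 and 1.09 times for SLC7A5, which have 3 annotated transcripts each. This leaves folds between libraries as they are.

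As deposited, SLC1A5 stood above SLC3A2 with SFA and with SFE, while with DMSO SLC3A2 stood above SLC1A5. On the merged exon length SLC3A2 stood above SLC1A5 in all 3 libraries. SLC3A2 then had 263 FPKM with SFA, 242 with SFE and 162 with DMSO. SLC1A5 had 170 FPKM with SFA, 165 with SFE and 89.3 with DMSO. SLC7A5 stood first on both scales, with 896 FPKM with SFA, 896 with SFE and 836 with DMSO on the merged length. SLC7A1 came after these 3 in both compound libraries, at 60.3 FPKM with SFA and 59.1 with SFE, and below SLC38A2 with DMSO, at 51.9 against 55.5 FPKM. SLC38A1, SLC6A9, SLC7A6, SLC1A4 and SLC43A1 closed the order, from high to low, in all 3 libraries. As deposited, SLC38A1 and SLC38A2 had overlapping counting intervals with SFA and with SFE, and SLC1A4 and SLC7A6 had them with DMSO. On the merged length no neighbours in the order overlapped in any library.

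**Figure D4:**
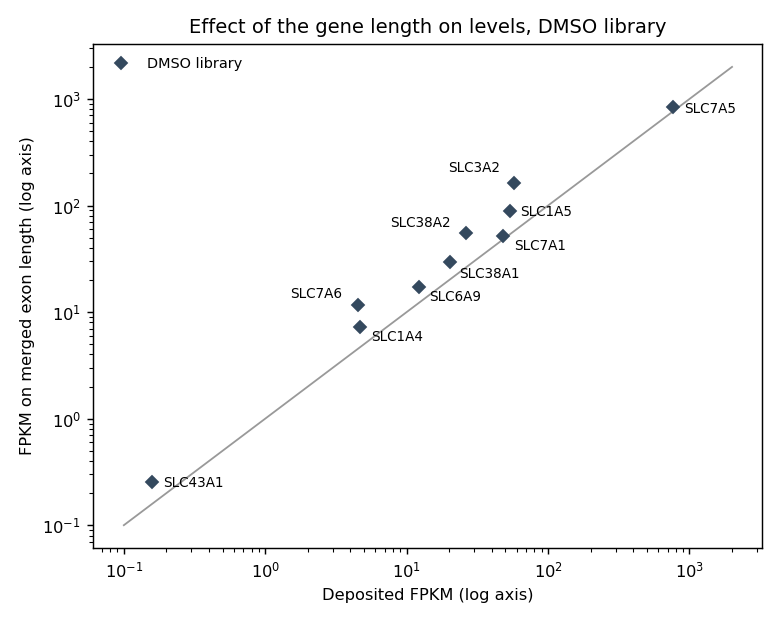
FPKM on the merged exon length against deposited FPKM in the DMSO library, both on log axes, 1 point per transporter, with the line of equal values. SLC3A2 (162 against 57.0) and SLC7A6 lie farthest above the line, and SLC7A5 (836 against 765) and SLC7A1 lie close to it.

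All 27 genes of a list for the ATF4 arm of the stress response passed the filter. ATF4 itself stood at 127 FPKM with SFA, 102 with SFE and 102 with DMSO, or 1.24-fold over DMSO with SFA (1.199 to 1.28) and 0.9997-fold with SFE (0.966 to 1.03). At least 1.5-fold higher were 7 of the 27 with SFA and 5 with SFE, where 5.36% of all genes were with SFA and 5.34% with SFE. As much lower were 0 of the 27 with either, where 4.67% of all genes were with SFA and 3.48% with SFE. PYCR1, which overlaps 3 listed genes, was 1.54-fold lower than DMSO with SFE by counts. PPP1R15A was 1.61-fold over DMSO with SFE by counts. Both lay short of 1.5-fold on the log2(FPKM + 1) scale with SFE. By any amount, 21 of the 27 were higher and 6 lower with SFA, and 16 higher and 11 lower with SFE. Over all genes, 51.4% were higher and 48.6% lower with SFA, and 55.2% higher and 44.8% lower with SFE. Among those at least 1.5-fold higher, ASNS, the asparagine synthetase, was 2.01-fold over DMSO with SFA and 1.92-fold with SFE. PSAT1, an enzyme of serine synthesis, was 1.72-fold over DMSO with SFA and 1.63-fold with SFE. CHAC1, which breaks down glutathione, was 3.10-fold over DMSO with SFA and 2.29-fold with SFE. CEBPB, a transcription factor gene that overlaps another listed gene, was 1.76-fold over DMSO with SFA and 1.55-fold with SFE. DDIT3, which encodes CHOP and overlaps another listed gene, was 2.47-fold over DMSO with both, from 140 counts with each compound and 78 with DMSO. The median log2 difference of the list was 0.16 with SFA, beside 0.01 over all genes, and 0.11 with SFE, beside 0.03.

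Of 27 further plasma membrane amino acid carriers, 7 passed the filter. SLC7A11 was the only one at least 1.5-fold higher on the log2(FPKM + 1) scale with either compound, and 0 were as much lower. Over all genes, 5.36% were as much higher with SFA and 5.34% with SFE. As much lower were 4.67% of all genes with SFA and 3.48% with SFE. By counts, SLC1A3 and SLC7A2 also passed 1.5-fold with SFA. SLC1A3, a glutamate carrier that overlaps 3 listed genes, stood at 5.07 FPKM with SFA, 4.38 with SFE and 3.17 with DMSO. By counts it was 1.60-fold over DMSO with SFA (1.44 to 1.77) and 1.38-fold with SFE (1.24 to 1.53). SLC7A2, a relative of SLC7A1 that overlaps 4 listed genes, stood at 1.83 FPKM with SFA, 2.81 with SFE and 3.11 with DMSO. By counts its folds over DMSO were 0.588 with SFA (0.517 to 0.667) and 0.902 with SFE (0.807 to 1.01). SLC6A15, a carrier of branched-chain amino acids and proline, stood at 3.29 FPKM with SFA, 2.89 with SFE and 3.99 with DMSO. The medians of the 7 log2 differences were 0.04 with SFA, beside 0.01 over all genes, and −0.06 with SFE, beside 0.03.

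Other genes had values like those of SLC1A5, SLC3A2 and SLC38A2, fewer for SLC1A5 and SLC3A2 than for SLC38A2. The 3 genes nearest to SLC1A5 in the pair of log2 differences from DMSO, over 3 libraries and 5447 candidate genes at 5 FPKM or more, were PXN, TUFT1 and BLVRB, at distances of 0.0088, 0.039 and 0.045. Nearest to SLC3A2 were the clone-named gene AC017002.2, ABCC2 and AKR1B1, at 0.0088, 0.036 and 0.042. Nearest to SLC38A2 were MTPN, ATAD1 and FHL2, at 0.0060, 0.0068 and 0.0072. Within a distance of 0.1 lay 16 genes for SLC1A5, 38 for SLC3A2 and 268 for SLC38A2. Of the 9 genes named, AKR1B1 alone overlaps no other listed gene.

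Markers of other cell types were read from the same libraries. Among 5 fibroblast markers, COL1A1, COL3A1 and PDGFRB were at least 1.5-fold lower with both compounds, where 4.67% of all genes were with SFA and 3.48% with SFE. The summed FPKM of the 5 markers was 10.1 with SFA, 12.6 with SFE and 26.3 with DMSO. COL1A2 had 0 counts with SFA, 0 with SFE and 1 with DMSO. No leukocyte or endothelial marker passed the filter. The 5 leukocyte markers summed to 0.835 FPKM with SFA, 0.824 with SFE and 0.256 with DMSO, and CD3E was at 0 in all 3 libraries. Most of that sum was CD68, at 0.735 FPKM with SFA, 0.767 with SFE and 0.193 with DMSO, from 47 counts with SFA, 49 with SFE and 17 with DMSO. The 4 endothelial markers summed to 0.352 FPKM with SFA, 0.336 with SFE and 0.565 with DMSO, and KDR was at 0 in all 3 libraries. Of the 4 epithelial markers that passed the filter, 2 were higher and 2 lower with each compound. KRT8 stood at 223 FPKM with SFA, 232 with SFE and 416 with DMSO, and KRT18 at 292 FPKM with SFA, 294 with SFE and 534 with DMSO. KRT7 stood at 161 FPKM with SFA, 151 with SFE and 118 with DMSO, and CLDN4 at 1.97 FPKM with SFA, 1.72 with SFE and 1.48 with DMSO. The part of these genes in the transporter values was not tested.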

How the data were processed

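RNA was sequenced from AGS cells in 3 libraries, 1 each for SFA, SFE and DMSO. The submitters' processing notes name hg38 as the build and list StringTie 1.2.3 and HISAT2 2.0.4, with no roles. How reads were counted, whether strand was used and which annotation release was taken is not given in the sources used here. Raw counts, whole numbers per gene, and FPKM were deposited by the authors. A single length per gene explains the deposited FPKM in every library, to within 0.0831% for 22070 genes.

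FPKM was used as deposited, and 1 entry was kept per gene name, the one with the highest mean FPKM. Differences are log2(FPKM + 1) in a compound library minus DMSO, which understates low genes, over genes that reached 1 FPKM in any library. Counts of members use limits of 1.5-fold and 2-fold. Folds of single genes are ratios of counts per library total, with 95% conditional Clopper-Pearson intervals (SciPy 1.17.1). Reads are not independent molecules, so intervals cover counting error only. With 1 library per group no p-value was computed. Exon lengths came from GENCODE 29, which matched 98.5% of identifiers, and promoter windows from RefSeq. Genes overlap when they share at least 1 base, which 56.1% of listed genes do.

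Alternatives were median-of-ratios scaling, TMM scaling (edgeR 4.0.16), a pseudocount of 0.1 FPKM, a filter of 5 FPKM or none, and leaving out overlapping genes. The merged exon length and sums with overlapping genes were added after seeing the data, and the sum for SLC1A5 is not reported here. The functions were tested on simulated data. The members, lists and limits were chosen with earlier results of these data known. Named were all members, up to 4 genes of each list with the largest difference, 6 genes whatever their values, and the 3 genes nearest to each of 3 members. KRT8, KRT18, KRT7, EPCAM, KRT19, CDH1, PYCR1, PPP1R15A, the overlap partners and the marker genes were named beside the values they bear on.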

Additional observations from a re-analysis of the deposited data

How the results depend on the processing

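No paired analysis was possible because each group has 1 library, and no library could be left out. The counts of members at 1.5-fold and 2-fold were the same under both scalings, a pseudocount of 0.1 FPKM, a filter of 5 FPKM, no filter and the merged exon length. The share of all genes past 1.5-fold in either direction moved more: it was 18.1% with SFA and 16.2% with SFE at a pseudocount of 0.1 FPKM, and 4.59% with SFA and 4.18% with SFE with no filter. At 2-fold it was 7.07% with SFA and 6.39% with SFE at that pseudocount, and 1.03% with SFA and 0.908% with SFE with no filter. Without overlapping genes 3 members could be counted, and those at 1.5-fold came to 1 with SFA (SLC3A2) and 0 with SFE, because SLC1A5 was among those left out. Of the 3957 genes in that setting, 10.3% passed 1.5-fold in either direction with SFA and 8.24% with SFE. TMM scaling lowered every fold, to 0.958 of its value with SFA and 0.935 with SFE, and median-of-ratios scaling to 0.977 with SFA and 0.947 with SFE. SLC1A5 was then 1.82-fold over DMSO with SFA and 1.73-fold with SFE under TMM scaling, and SLC3A2 1.56-fold with SFA and 1.40-fold with SFE. Under median-of-ratios scaling SLC38A1 was 1.02-fold over DMSO with SFA and 0.977-fold with SFE, and SLC7A6 was 0.983-fold with SFA and 0.968-fold with SFE, so the direction of both genes depends on scaling. Counting error limits SLC43A1, which had 15 to 17 counts. The counts for the other gene lists were not repeated under the alternatives. With 1 library per group the spread between cultures is not known for any value.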

Other observations

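Carriers that move amino acids across inner membranes were read in the same libraries. Of 9 listed genes of lysosomal carriers, 7 were at 1 FPKM or more, and 2 were at least 1.5-fold higher with SFA and with SFE, while 0 were as much lower. Over all genes, 5.36% were as much higher with SFA and 5.34% with SFE. As much lower were 4.67% of all genes with SFA and 3.48% with SFE. SLC66A1 (listed as PQLC2), which exports cationic amino acids from lysosomes, stood at 3.14 FPKM with SFA, 3.02 with SFE and 1.49 with DMSO, or 2.11-fold over DMSO with SFA (1.69 to 2.64) and 2.03-fold with SFE (1.62 to 2.54). SLC29A3, a lysosomal carrier of nucleosides rather than amino acids, was 2.06-fold over DMSO with SFA and 2.37-fold with SFE. MFSD12, which imports cysteine into lysosomes and overlaps 6 listed genes, was 1.49-fold lower than DMSO with SFA and 1.38-fold lower with SFE. SLC36A1, a proton-coupled carrier, was 1.24-fold over DMSO with SFA and 1.27-fold with SFE.

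Of 11 mitochondrial carriers, 9 passed the filter of 1 FPKM. At least 1.5-fold lower were 1 with SFA and 2 with SFE, where 4.67% of all genes were with SFA and 3.48% with SFE. As much higher were 0 of these carriers, where 5.36% of all genes were with SFA and 5.34% with SFE. SLC25A29, a carrier of basic amino acids that overlaps 2 listed genes, was 2.29-fold lower than DMSO with SFA and 2.36-fold lower with SFE. SLC25A22, a glutamate carrier that overlaps another gene, stood at 12.9 FPKM with SFA, 7.88 with SFE and 12.4 with DMSO. SLC25A15, the ornithine carrier, was 1.48-fold over DMSO with SFA and 1.53-fold with SFE by counts. SLC25A13, an aspartate and glutamate exchanger that overlaps another gene, was 1.30-fold over DMSO with SFA and 1.43-fold with SFE. Of 31 genes of amino acid sensing upstream of mTORC1, 24 passed the filter, and 0 differed from DMSO by 1.5-fold with SFA or with SFE. Of all genes, 10.0% differed by that much with SFA and 8.82% with SFE. TSC2, an inhibitor of the pathway, had the largest difference from DMSO among the 24 with SFA, though not with SFE. It stood at 7.76 FPKM with SFA, 9.02 with SFE and 10.35 with DMSO. RHEB, the GTPase that activates mTORC1, was 1.14-fold over DMSO with SFA and 1.21-fold with SFE. LAMTOR5, part of the lysosomal scaffold, was 1.22-fold over DMSO with SFA and 1.03-fold with SFE. SEC13, part of a complex that restrains the inhibitors of the pathway, was 1.17-fold over DMSO with both. These 4 genes each overlap another listed gene, and their values are uncertain.

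The length behind the deposited FPKM bears on any ranking of genes in these files. It was 1.13 times the merged exon length at the median over all matched genes, and it matched the merged length within 1% for 41.8% of them. Among the 10 transporters it ran from 1.08 times for SLC7A1 to 2.84 times for SLC3A2.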
